A study of Danio rerio with 4 samples.

Results

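The neuronal miRNAs miR-128, miR-137, miR-138, miR-153 and miR-218 were examined in small RNA libraries of whole zebrafish larvae exposed to BDE47, a brominated flame retardant. Members were all entries of the deposited miRNA table whose miRNA number was exactly one of these 5, and 8 of the 245 listed zebrafish miRNAs met this rule. They were miR-128, miR-137, miR-138, miR-153a, miR-153b, miR-153c, miR-218a and miR-218b, each with a single entry that carries no arm. All 8 were among the 234 entries whose mean over the libraries reached 10 normalized counts, which were the ones compared. The larvae were wild-type Tuebingen fish at 6 days post fertilization (dpf), with no genetic change in any group. One library was sequenced per group, namely blank control larvae, vehicle control larvae kept in 0.1% DMSO, and larvae given BDE47 in the same DMSO at 5 μg/L or at 500 μg/L. Exposure began at 5 to 6 hours post fertilization and each RNA sample pooled 40 to 50 larvae. The label of the blank control does not state whether DMSO was present. As no condition was replicated, no difference between conditions could be checked against replicates, no p-value was computed, and each value describes these libraries.

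A miRNA is a short RNA that pairs with messenger RNAs through its 5′ end and lowers their translation or stability. miRNAs that share this 5′ end, the seed, form a family, and several genes can encode identical or nearly identical members. In vertebrates these 5 families are found in neurons, though not all of them in neurons alone, and some of their hairpins lie in host genes that neurons use. miR-128 dampens neuronal excitability and motor activity in mice. miR-137 acts in neurogenesis and lies at a schizophrenia risk locus in humans, while miR-138 limits the size of dendritic spines in rat neurons. miR-153 acts on components of synaptic vesicle release such as snap25 in zebrafish, and miR-218 marks motor neurons in mice and zebrafish.

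The 8 entries were encoded by 13 hairpin genes in the RefSeq annotation of the GRCz12tu assembly, of which 9 lay within a protein-coding gene. miR-128 had 3 gene copies, 1 in r3hdm1, 1 in arpp21 and 1 in a long noncoding RNA. Each miR-153 entry had a gene of its own, namely miR-153a in ptprn2, miR-153b in ptprnb and miR-153c in ptprna. These host genes encode phosphatase-like receptor proteins of secretory vesicles. miR-218a had 2 copies, in slit2 and slit3, which encode axon guidance ligands, whereas the single miR-218b gene lay outside other genes. miR-138 had 2 copies, 1 of them in tcaim, and miR-137 had 2 copies, 1 in an uncharacterized protein-coding gene. Values of miR-128, miR-137, miR-138 and miR-218a therefore sum over gene copies that the table does not separate. The mature sequences of miR-153a, b and c, and of miR-218a and b, are nearly identical, so that the mapping could have divided reads between entries, and the counting of such reads is not given in the sources used here.

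The listed miRNAs held 8858169 to 10357704 reads per library, and the 10 most abundant took 72.0% to 74.3% of them. Marker miRNAs of the tissues that a whole larva contains were present in every library. The miR-9 and miR-124 entries, of the nervous system, summed to between 35930 and 40188 normalized counts. Of these, miR-9-5p held between 32848 and 35649 and miR-124 between 1823 and 3248. The 8 muscle entries summed to between 44384 and 49945, and the 6 entries of liver and gut to between 1230362 and 1853685. These are bulk samples, so fewer cells of a type and less miRNA per cell cannot be told apart. Values are normalized counts, meaning reads divided by 1 size factor per library. Changes are log2 ratios after adding 1 normalized count. Each ratio has a 95% Clopper-Pearson (exact) interval based on the read numbers of the libraries compared, which covers the counting error alone, as reads copied by PCR are no independent molecules.

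The members together took 1.22% of the listed reads of blank control larvae (exact 95% interval 1.21 to 1.23), 1.39% of those of vehicle control larvae (1.38 to 1.39), 1.25% of the 5 μg/L library (1.24 to 1.26) and 1.16% of the 500 μg/L library (1.15 to 1.17). The highest mean over the libraries was that of miR-138, with 33181 normalized counts. It was not the highest in every library. In the vehicle control miR-153c was above miR-138 (31818 against 29048), and at 500 μg/L miR-128 was (31641 against 29234). miR-128 (26765) and miR-153c (26092) followed with nearly equal means, and their order depended on the library. Next came miR-153a (13469), miR-153b (11808), miR-218a (6246) and miR-218b (3065), and far below them miR-137 with 571. miR-138 ranked between 29 and 34 of the 234 miRNAs and miR-137 between 179 and 186. Mature miRNAs are of similar length, so no correction for length was made, but adaptor ligation differs between miRNAs and limits comparisons of level between them.

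**Figure D1:**
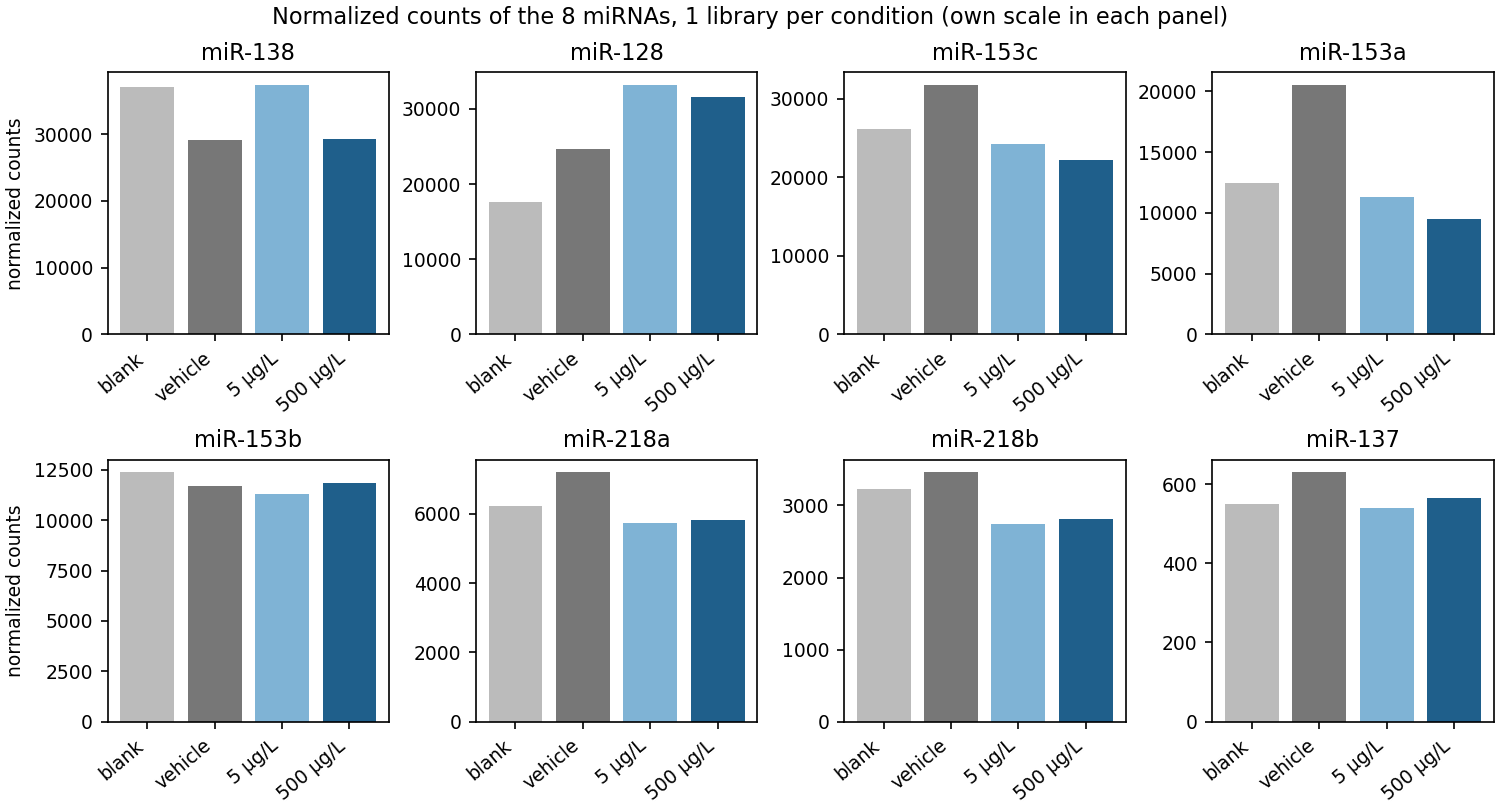
Normalized counts (vertical axis, starting at 0, with a scale of its own in each panel) of the 8 miRNAs in the blank control, the vehicle control, 5 μg/L BDE47 and 500 μg/L BDE47, 1 bar per library. miR-153a stood at 20540 in the vehicle control and between 9531 and 12470 elsewhere, and miR-128 was higher in both BDE47 libraries than in either control.

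At 500 μg/L BDE47, 1 of the 8 members, miR-153a, was more than 2-fold away from the vehicle control, and it was lower. At this threshold 8.97% of the 234 miRNAs were beyond 2-fold in either direction (7.69% lower and 1.28% higher), so that 1 of 8 members was close to the background. At 5 μg/L 0 of 8 members were beyond 2-fold, against 2.99% of all miRNAs. Between the vehicle and blank controls there were also 0 of 8, against 1.28%, and between 500 μg/L and 5 μg/L 0 of 8, against 1.71%. A lower threshold of 1.5-fold called miR-153a and no other member in the comparisons of 500 μg/L with the vehicle control (20.9% of all miRNAs), of 5 μg/L with the vehicle control (15.4%) and of the vehicle with the blank control (13.2%), and 0 members between 500 μg/L and 5 μg/L (8.97%). The spread of a member over the libraries, as the highest value divided by the lowest, ran from 1.10 for miR-153b to 2.16 for miR-153a, with a median of 1.27 for the members and 1.29 for all miRNAs. By this spread the members varied about as much as the median miRNA, but single comparisons differed. Relative to the vehicle control, the median absolute log2 ratio of the members was 0.30 at 500 μg/L (0.29 for all miRNAs). At 5 μg/L it was 0.35 (0.19 for all miRNAs). It was 0.25 for the vehicle over the blank control (0.19) and 0.07 for 500 μg/L over 5 μg/L (0.16).

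miR-153a had 12470 normalized counts in blank control larvae, 20540 in vehicle control larvae, 11334 under 5 μg/L BDE47 and 9531 under 500 μg/L BDE47. The vehicle control stood apart from the other 3 libraries, which lay within a narrower range, and 500 μg/L was the lowest. Relative to the vehicle control, miR-153a had log2 ratios of -1.11 at 500 μg/L (-1.14 to -1.07), which is 0.464 of the vehicle level, and of -0.86 at 5 μg/L (-0.89 to -0.83). Set against the blank control, miR-153a was lower by less, with log2 ratios of -0.39 under 500 μg/L BDE47 (-0.43 to -0.35) and of -0.14 under 5 μg/L BDE47 (-0.18 to -0.10). The vehicle control exceeded the blank control, with a log2 ratio of 0.72 (0.69 to 0.75), the 16th highest of the 234 miRNAs. All comparisons with the vehicle control share that library, and the call of 2-fold at 500 μg/L did not hold against the blank control, where 0 of 8 members were beyond 2-fold (0.855% of all miRNAs).

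The paralogs of miR-153a followed it in part. miR-153c, the most abundant of the family, had 26166 normalized counts in blank control larvae, 31818 in vehicle control larvae, 24204 under 5 μg/L BDE47 and 22179 under 500 μg/L BDE47. Its libraries had the same order as those of miR-153a with smaller distances, with log2 ratios to the vehicle control of -0.52 under 500 μg/L BDE47 (-0.54 to -0.50) and of -0.39 under 5 μg/L BDE47 (-0.42 to -0.37). miR-153b, in contrast, was the steadiest member, with 12397 normalized counts in blank control larvae, 11708 in vehicle control larvae, 11284 under 5 μg/L BDE47 and 11844 under 500 μg/L BDE47. Relative to the vehicle control miR-153b had a log2 ratio of 0.02 under 500 μg/L BDE47 (-0.02 to 0.05) and of -0.05 under 5 μg/L BDE47 (-0.09 to -0.02).

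The makeup of the family within a library does not depend on the scaling between libraries. miR-153a took 24.4% of the miR-153 reads of blank control larvae, 32.1% of those of vehicle control larvae, 24.2% under 5 μg/L BDE47 and 21.9% under 500 μg/L BDE47, each with an exact counting interval narrower than 1 percentage point. Reads of miR-153a were 1.01 times those of miR-153b in blank control larvae (0.980 to 1.03), 1.75 times in vehicle control larvae (1.72 to 1.79), 1.00 times under 5 μg/L BDE47 (0.979 to 1.03) and 0.805 times under 500 μg/L BDE47 (0.783 to 0.827). The blank control and 5 μg/L libraries thus differed by less than counting error in this ratio, while the vehicle control lay above them and 500 μg/L below them. miR-153c kept a share between 49.7% and 51.7% in the libraries. Summed over its entries, miR-153 lay below the vehicle control, at log2 ratios of -0.56 under 500 μg/L BDE47 (-0.57 to -0.54) and of -0.45 under 5 μg/L BDE47 (-0.47 to -0.44), and the vehicle control was above the blank control by 0.33 (0.31 to 0.35).

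**Figure D2:**
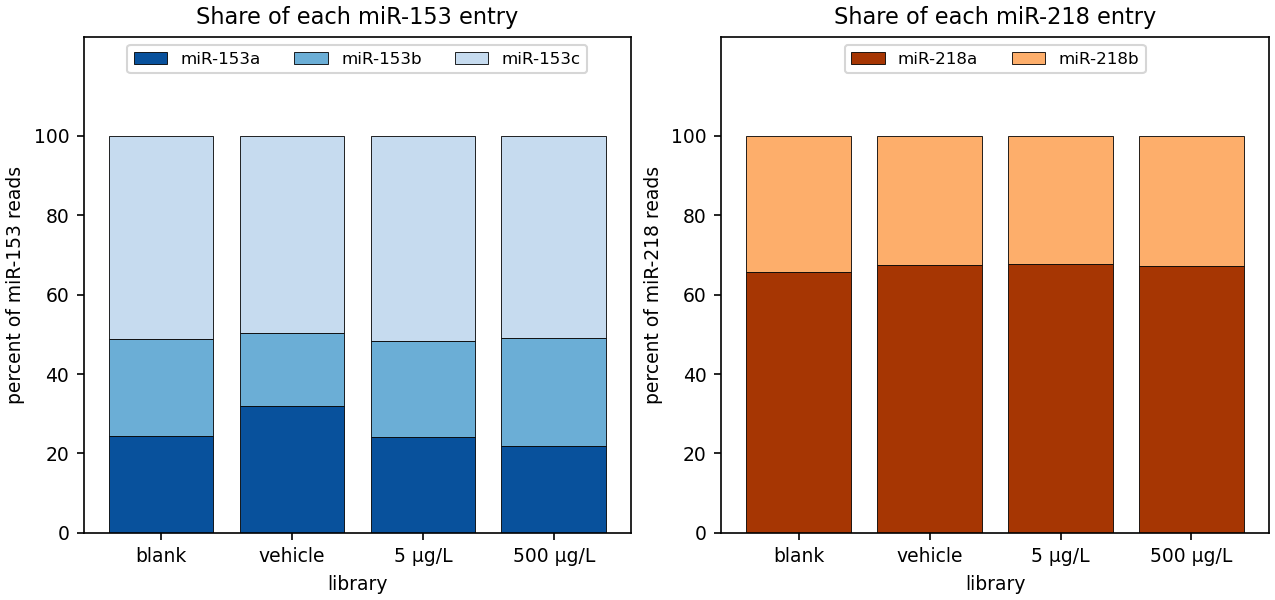
Percent of the miR-153 reads (left) and of the miR-218 reads (right) that each entry took in the 4 libraries. The share of miR-153a was 32.1% in the vehicle control and between 21.9% and 24.4% in the other libraries, whereas the share of miR-218a stayed between 65.8% and 67.6%.

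miR-128 differed from the other members in that both BDE47 libraries lay above both controls. It had 17579 normalized counts in blank control larvae, 24630 in vehicle control larvae, 33210 under 5 μg/L BDE47 and 31641 under 500 μg/L BDE47. The blank control was the lowest, the vehicle control came next, and the BDE47 libraries were the highest and lay close to each other. Compared with the vehicle control, miR-128 had a log2 ratio of 0.36 under 500 μg/L BDE47 (0.34 to 0.38) and of 0.43 under 5 μg/L BDE47 (0.41 to 0.45), and the vehicle control itself was above the blank control by 0.49 (0.46 to 0.52). The step between the controls was thus larger than either step between BDE47 and the vehicle control. Against the blank control the log2 ratios were 0.85 under 500 μg/L BDE47 (0.82 to 0.88) and 0.92 under 5 μg/L BDE47 (0.89 to 0.95), the second highest and the highest of the 234 miRNAs, though neither reached 2-fold (0 miRNAs did so at 5 μg/L). The 500 μg/L library was slightly below the 5 μg/L library, by a log2 ratio of -0.07 (-0.09 to -0.05).

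miR-138 had 37058 normalized counts in blank control larvae, 29048 in vehicle control larvae, 37382 under 5 μg/L BDE47 and 29234 under 500 μg/L BDE47. The libraries fell into pairs that crossed the design, with the vehicle control and 500 μg/L low, and the blank control and 5 μg/L high. Relative to the vehicle control, miR-138 had log2 ratios of 0.01 under 500 μg/L BDE47 (-0.01 to 0.03) and of 0.36 under 5 μg/L BDE47 (0.34 to 0.39), the first of which was -0.07 when libraries were scaled to the total of listed reads. For 500 μg/L over 5 μg/L the log2 ratio came to -0.35 (-0.38 to -0.33). For the vehicle over the blank control it likewise came to -0.35 (-0.37 to -0.33), the 14th lowest of all miRNAs. miR-138 and miR-153b were the members that were lower in the vehicle control than in the blank control.

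The miR-218 entries had similar profiles. miR-218a had 6225 normalized counts in blank control larvae, 7207 in vehicle control larvae, 5742 under 5 μg/L BDE47 and 5811 under 500 μg/L BDE47. miR-218b had 3229 normalized counts in blank control larvae, 3465 in vehicle control larvae, 2748 under 5 μg/L BDE47 and 2818 under 500 μg/L BDE47. In each entry the vehicle control was the highest library, and both BDE47 libraries were below both controls and within counting error of each other. The log2 ratios to the vehicle control were -0.31 (-0.36 to -0.26) for miR-218a and -0.30 (-0.37 to -0.23) for miR-218b at 500 μg/L. At 5 μg/L they were -0.33 (-0.38 to -0.28) for miR-218a and -0.33 (-0.40 to -0.26) for miR-218b. Against the blank control the differences shrank to -0.10 for miR-218a (-0.15 to -0.05) and -0.20 for miR-218b (-0.27 to -0.12) at 500 μg/L. Reads of miR-218a were between 1.93 and 2.09 times those of miR-218b in every library.

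miR-137, the scarcest member, was read 512 times in blank control larvae, 688 in vehicle control larvae, 553 under 5 μg/L BDE47 and 536 under 500 μg/L BDE47, which gave 549 normalized counts in blank control larvae, 630 in vehicle control larvae, 540 under 5 μg/L BDE47 and 566 under 500 μg/L BDE47. The vehicle control was the highest and the other libraries lay close to each other, between 540 and 566. Relative to the vehicle control, miR-137 had log2 ratios of -0.16 at 500 μg/L (-0.32 to 0.01), a difference that counting error allows, and of -0.22 at 5 μg/L (-0.39 to -0.06). Set against blank control larvae, miR-137 had a log2 ratio of 0.04 under 500 μg/L BDE47 (-0.13 to 0.22) and of -0.02 under 5 μg/L BDE47 (-0.20 to 0.15), so that no difference between BDE47 and the blank control was detectable at this depth.

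**Figure D3:**
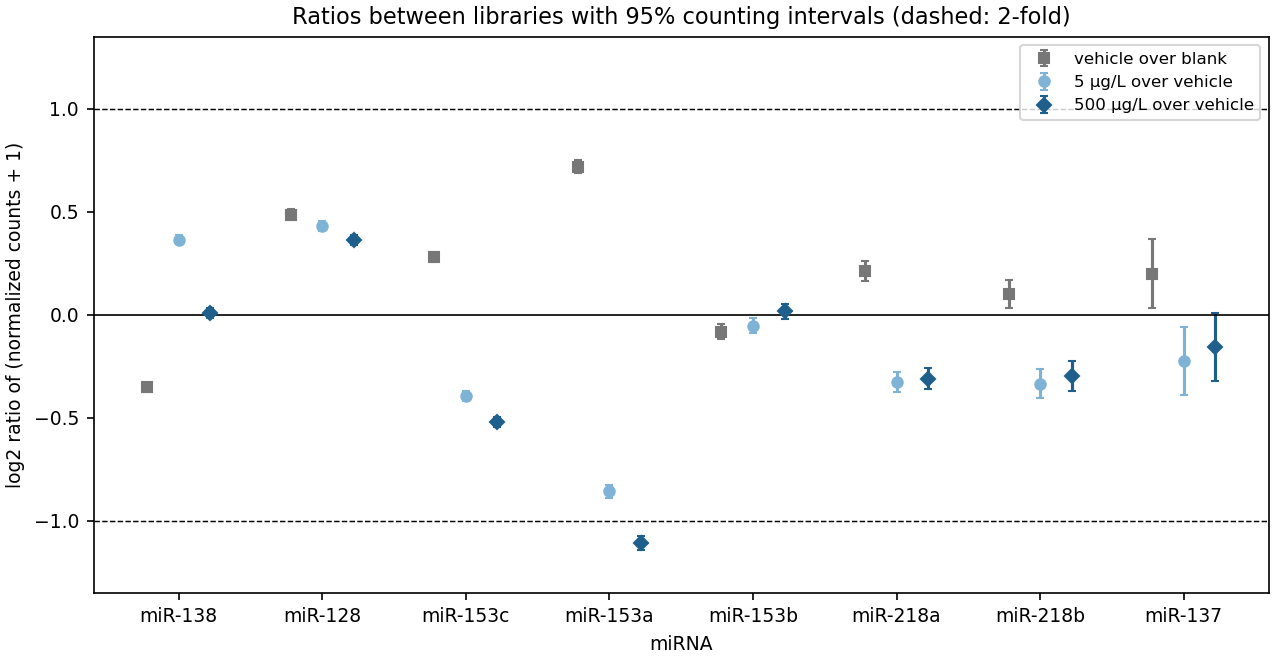
Log2 ratios of normalized counts (after adding 1) for vehicle control over blank control, 5 μg/L over vehicle control and 500 μg/L over vehicle control, with 95% counting intervals as bars. miR-153a at 500 μg/L, with -1.11, is the single point beyond the dashed 2-fold lines.

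Taking the members together, 3 were higher and 5 lower at 500 μg/L than in the vehicle control, and at 5 μg/L 2 were higher and 6 lower, against 51.7% of all miRNAs higher and 48.3% lower at each concentration. Scaling the libraries to the total of listed reads gave 1 member higher and 7 lower at 500 μg/L, against 42.7% of all miRNAs higher and 57.3% lower under that scaling. The members that changed sign were miR-138 and miR-153b, whose values with the deposited scaling were within counting error of 0. At 5 μg/L the scaling to the total gave 2 members higher and 6 lower. There, 32.5% of all miRNAs were higher and 67.5% lower, so the background lay nearer to the members than with the deposited scaling. The members had a median log2 ratio of -0.23 under 500 μg/L BDE47 and of -0.28 under 5 μg/L BDE47, where the medians of all 234 miRNAs were 0.02 and 0.02. Between the controls 6 of 8 members were higher in the vehicle control than in the blank control, against 56.0% of all miRNAs higher and 44.0% lower, with a median of 0.21 for the members and 0.03 for all miRNAs. The vehicle control was the highest of the 4 libraries for 5 of 8 members, against 35.9% of all miRNAs. These medians share the vehicle control. With the blank control in its place the medians of the members were -0.15 for 500 μg/L and -0.11 for 5 μg/L, where those of all miRNAs were 0.0089 and -0.0061. Between 500 μg/L and 5 μg/L the median of the members was -0.03, with 4 members higher and 4 lower, against 48.7% and 51.3% of all miRNAs.

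Both BDE47 libraries lay below both controls for 4 of 8 members (miR-153a, miR-153c, miR-218a and miR-218b), against 21.8% of all miRNAs, and above both controls for 1 member (miR-128), against 23.9%. Those 4 entries come from miR-153 and miR-218 alone, whose nearly identical paralogs may share reads, so they are not independent members. Other counts over the 8 entries have the same limit. At 5 μg/L alone 6 members were below both controls and 2 above, against 34.2% and 33.8% of all miRNAs. At 500 μg/L 4 were below, 1 above and 3 between the controls, against 38.0%, 40.2% and 21.8%. Under the scaling to the total of listed reads, 7 members lay below both controls at 500 μg/L, against 47.4% of all miRNAs, and 6 did so in both BDE47 libraries, against 33.3%. In that scaling miR-128 was the 1 member above both controls at 5 μg/L, against 15.8% of all miRNAs. At 5 μg/L 6 members were below both controls in that scaling, against 50.9% of all miRNAs. Summed over the 8 entries, the members differed from the vehicle control by a log2 ratio of -0.18 under 500 μg/L BDE47 (-0.20 to -0.17) and of -0.03 under 5 μg/L BDE47 (-0.04 to -0.02). In the sum at 5 μg/L, the higher values of miR-128 and miR-138 offset the lower values of miR-153.

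**Figure D4:**
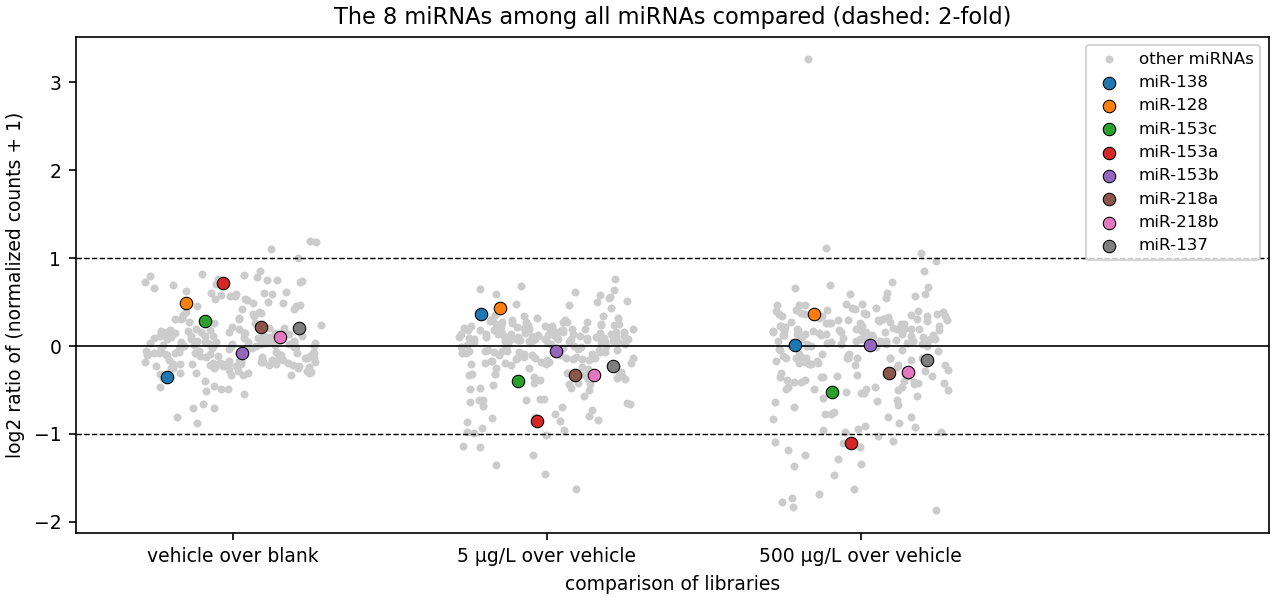
Log2 ratios of all 234 miRNAs (grey) and of the 8 members (coloured) for vehicle control over blank control, 5 μg/L over vehicle control and 500 μg/L over vehicle control. The members lay within the range of the other miRNAs in each comparison, with miR-153a near the high end for vehicle over blank and near the low end for both BDE47 comparisons.

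The table held 10 entries of other miRNAs of the nervous system (miR-9, miR-124, miR-129, miR-132, miR-212, miR-219 and miR-338). At 500 μg/L 2 of these 10 were more than 2-fold above the vehicle control and 1 below it, with a median log2 ratio of -0.05. Of all miRNAs 1.28% were that far above it and 7.69% below it. The higher ones were miR-132-3p (1.05), from a miRNA tied to neuronal activity, and miR-129-3p (1.11). The other arms of these hairpins had lower values, 0.60 for miR-129-5p and -0.41 for miR-132-5p. miR-132-5p was scarce, with between 78.1 and 135 normalized counts per library, where miR-132-3p had between 1347 and 2799. The entry below was miR-219 (-1.77), which acts in oligodendrocytes, the myelin-forming cells, where miR-338, the other oligodendrocyte miRNA of the list, had -0.22. At 5 μg/L miR-219 (-1.23) was the 1 entry of these 10 beyond 2-fold, against 2.99% of all miRNAs. None of these calls held against the blank control. There, 0 of the 10 were beyond 2-fold at 500 μg/L (0.855% of all miRNAs) and 0 at 5 μg/L (0% of all miRNAs). At 500 μg/L the log2 ratios to the blank control were 0.85 for miR-132-3p, 0.63 for miR-129-3p and -0.67 for miR-219. The miR-124 and miR-9 entries were uneven at 500 μg/L, with -0.83 for miR-124, -0.09 for miR-9-5p and -0.00 for miR-9-3p. At 5 μg/L the values were -0.47 for miR-124, -0.09 for miR-9-5p and -0.07 for miR-9-3p. For the vehicle over the blank control, 6 entries of this list were higher and 4 lower, with a median of 0.08. The highest were miR-219 (1.10), miR-124 (0.72) and miR-132-5p (0.66). The lower ones were miR-129-3p (-0.49), miR-132-3p (-0.21), miR-212 (-0.08) and miR-338 (-0.06), so that the arms of miR-132 went in opposite directions.

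Lists of other tissues also held entries that moved in opposite directions. Of the 5 entries of white blood cells, the 3 of miR-142 were between -1.83 and -1.18 under 500 μg/L BDE47, whereas miR-150 had 0.59 and miR-223 0.48. Under 5 μg/L BDE47 the miR-142 entries were between -1.14 and -0.80, with 0.55 for miR-150 and 0.58 for miR-223. The miR-142 entries were higher in the vehicle control than in the blank control, with log2 ratios between 0.62 and 1.00. Against the blank control they were between -0.83 and -0.57 at 500 μg/L and between -0.19 and -0.04 at 5 μg/L. At 500 μg/L miR-150 had 0.28 and miR-223 0.38 against the blank control. Of the red blood cell miRNAs, miR-144 had -1.68 and miR-451 0.67 under 500 μg/L BDE47, and their summed level had a log2 ratio of 0.29. At the lower concentration miR-144 had -1.63 and miR-451 -0.06. For the vehicle over the blank control miR-144 had 1.18 and miR-451 -0.19. Against the blank control miR-144 had -0.50 at 500 μg/L and -0.45 at 5 μg/L, and miR-451 had 0.47 and -0.26. The 6 entries of liver and gut had a median of -0.45 under 500 μg/L BDE47, with 5 lower and 1 higher than the vehicle control. Under 5 μg/L BDE47 their median was 0.13, with 1 lower and 5 higher. Of all miRNAs 48.3% were lower and 51.7% higher at each concentration. At 500 μg/L 1 of the 6 was more than 2-fold lower, against 7.69% of all miRNAs. This was miR-459-5p (-1.87), the lowest of all miRNAs. It had -0.86 at 5 μg/L, and -1.27 for 500 μg/L over the blank control. The 8 muscle entries had medians of 0.03 under 500 μg/L BDE47 and of 0.08 under 5 μg/L BDE47. At 500 μg/L miR-133b-5p had -1.23, but with 31.2 normalized counts in the vehicle control and 12.7 at 500 μg/L it was close to the filter. The other arm, miR-133b-3p, had -0.01. The 4 entries of sensory cells had medians of 0.06 under 500 μg/L BDE47 and 0.13 under 5 μg/L BDE47. Of these other miRNAs, the entries within 2-fold were named after their values were seen. The part of such shifts in the values of the members was not tested.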

How the data were processed

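Small RNA of whole larvae was sequenced by the authors on a HiSeq platform, 1 library per condition. Reads were filtered by quality, adaptor and length (at least 17 bases) and mapped to zebrafish miRNAs of miRBase v21.0. The deposited signal holds reads per miRNA after the authors scaled each library by a size factor (0.933 to 1.09). Every value was a whole multiple of 1 number per library within 0.01 of a read, which gave back the reads, and the size factors equalled the median of ratios of each library. This scaling treats the bulk of miRNAs as unchanged.

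Log2 ratios were computed after adding 1, over 234 miRNAs with a mean of at least 10. Changes beyond 2-fold were counted. No test between conditions was possible. All members were named, and other miRNAs only from lists fixed by number. The members and lists were chosen with earlier results of these data known. The calculations were tested on simulated data. Alternatives were pseudocounts of 0.1 and 10, other filters, other scalings, other controls, sums by miRNA number and a fold threshold of 1.5. Gene names and neighbours came from the RefSeq table of GRCz12tu, where all 8 entries matched. The work was done in Python 3.11.15 with scipy 1.17.1, numpy 2.4.6, matplotlib 3.10.9 and pandas 2.3.3.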

Additional observations from a re-analysis of the deposited data

How the results depend on the processing

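With 1 library per condition, each value also holds the difference between larval pools and library preparations, which the counting intervals leave out. No paired analysis was possible because each group had 1 library. Pseudocounts of 0.1 and 10 and size factors over the 234 miRNAs kept all 96 values of single members within their counting intervals. Scaling to the total of listed reads shifted the median of all miRNAs at 5 μg/L by -0.12. It gave a median of the members of -0.40 at 5 μg/L and of 0.018 for 500 μg/L over 5 μg/L, and log2 ratios of the summed reads of -0.26 at 500 μg/L, -0.15 at 5 μg/L, 0.19 for the vehicle over the blank control and -0.11 for 500 μg/L over 5 μg/L. Between 500 μg/L and 5 μg/L the values with the deposited size factors were -0.026 and -0.15. With the blank control as the reference, 0 members were beyond 2-fold at 500 μg/L, against 0.855% of all miRNAs. The summed ratios were then -0.026 for 500 μg/L and 0.13 for 5 μg/L, and the median at 5 μg/L was -0.11. With the mean of both controls, 0 members were beyond 2-fold at 500 μg/L, and the summed ratios were -0.11 for 500 μg/L and 0.047 for 5 μg/L. Summing entries by miRNA number also left 0 beyond 2-fold at 500 μg/L, since miR-153b and miR-153c are then added to miR-153a. The share of all miRNAs was not computed with the mean of both controls or with sums by number. The counts of 0 in those settings therefore cannot set the members apart from other miRNAs. A fold threshold of 1.5 gave 1 member at 5 μg/L (15.4% of all miRNAs) and 1 between the controls (13.2%), in each case miR-153a. Other filters left these results as they were, because all 8 members passed them. Of 160 alternative values of single members 7 changed sign, 2 with scaling to the total, 3 with the blank control and 2 with the mean of both controls, and these were miR-137, miR-138 and miR-153b at 500 μg/L. The value of miR-153a at 500 μg/L was -0.79 with the mean of both controls.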

Other observations

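The ratio of miR-128 to miR-138 reads within a library, a pair chosen after the values were seen, does not depend on the scaling between libraries. It was 0.474 in the blank control (95% counting interval 0.466 to 0.483), 0.848 in the vehicle control (0.834 to 0.862), 0.888 at 5 μg/L (0.875 to 0.901) and 1.08 at 500 μg/L (1.06 to 1.10). The intervals did not overlap, and the widest step was that between the blank and vehicle controls. With 1 library per condition, a difference between libraries and a difference between conditions cannot be told apart in this ratio.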
